A study of Mus musculus with 3 samples.

Results

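Potassium channel genes were followed in total RNA of mouse heart ventricle at 3 stages. The assembled annotation of the study held 116 loci whose gene name begins with Kcn, leaving out the non-coding RNA Kcnq1ot1, among 48626 loci in all. Of these 116, 94 were loci of the channel genes themselves, and 22 lay on the opposite strand and only bore the name of the channel gene that they overlapped. In the 94 gene loci, 41 reached 1 FPKM (fragments scaled to exon length and library size) in at least 1 library and are described below. The other 53 stayed under 1 FPKM in all 3 libraries, and 6 of them, Kcnk4, Kcnk9, Kcnk12, Kcnk15, Kcnk16 and Kcnmb3, were listed at 0 in each. Just above the limit, by highest value, lay Kcnip3 at 1.02, Kcng1 at 1.10 and Kcnk1 at 1.11 FPKM, and just below it Kcna2 at 0.949, Kcnk2 at 0.833 and Kcnc2 at 0.802 FPKM.

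The ventricles came from C57BL/6 mice at the embryonic stages E10.5 and E13.5, named by day of gestation, and at the adult age of 8 weeks, with no genetic change or treatment named. Each stage had 1 library, so there was no replicate to check a difference against, no test was made, and "higher" and "lower" describe 3 single libraries. Whether animals were pooled for a library is not given in the sources used here. In bulk RNA such as this, fewer cells of a type and less RNA per cell cannot be told apart.

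Potassium channels let potassium ions leave the cardiomyocyte and so set its resting potential and end each action potential. Inward rectifiers hold the resting potential, transient outward channels shape the early notch of repolarization, delayed rectifiers complete it, and tandem-pore (K2P) channels carry a background current. Most of these channels are assembled from pore-forming subunits together with accessory subunits that alter their gating and trafficking. The adult mouse ventricle is known for fast repolarization by transient outward and sustained voltage-gated currents, whereas the embryonic ventricle relies more on rapid delayed rectifier current of the ERG type.

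The promoters below, from 250 bases before to 50 bases after the start of a RefSeq transcript (assembly GRCm38.p6), belong to a pair of genes far higher in the adult library and a pair nearly confined to the embryonic ones. They are shown because their levels differ most between E10.5 and the adult, in each direction, among genes with a window in the RefSeq table used here, and capitals mark each CG dinucleotide.
Kcnj2 (chr11:111065914-111066213, plus strand): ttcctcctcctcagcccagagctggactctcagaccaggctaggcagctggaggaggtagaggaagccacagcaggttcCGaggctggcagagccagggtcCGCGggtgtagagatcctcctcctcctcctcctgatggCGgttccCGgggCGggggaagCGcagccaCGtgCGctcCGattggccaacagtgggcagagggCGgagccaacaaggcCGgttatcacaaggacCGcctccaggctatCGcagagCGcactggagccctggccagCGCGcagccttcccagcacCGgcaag
Kcnip2 (chr19:45816014-45816313, minus strand): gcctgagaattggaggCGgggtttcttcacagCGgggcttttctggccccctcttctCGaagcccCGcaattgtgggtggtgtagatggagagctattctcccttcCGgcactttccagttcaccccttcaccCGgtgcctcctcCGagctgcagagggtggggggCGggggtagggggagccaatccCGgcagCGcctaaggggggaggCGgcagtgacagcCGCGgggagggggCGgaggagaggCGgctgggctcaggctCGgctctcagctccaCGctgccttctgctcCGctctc
Kcne1l (chrX:142306149-142306448, minus strand): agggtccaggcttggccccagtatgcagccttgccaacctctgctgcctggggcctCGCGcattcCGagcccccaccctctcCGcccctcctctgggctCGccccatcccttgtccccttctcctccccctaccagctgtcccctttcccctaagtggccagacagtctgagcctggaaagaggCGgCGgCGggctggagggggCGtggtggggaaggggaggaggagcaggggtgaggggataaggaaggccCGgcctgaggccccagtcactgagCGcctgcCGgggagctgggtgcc
Kcnh7 (chr2:63184238-63184537, minus strand): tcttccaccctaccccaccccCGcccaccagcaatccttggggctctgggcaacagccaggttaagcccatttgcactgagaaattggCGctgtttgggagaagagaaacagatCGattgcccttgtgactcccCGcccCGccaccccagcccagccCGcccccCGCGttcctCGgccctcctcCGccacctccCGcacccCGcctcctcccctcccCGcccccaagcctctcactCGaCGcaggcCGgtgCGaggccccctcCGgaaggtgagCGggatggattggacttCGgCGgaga
The windows hold 18, 18, 12 and 21 CG dinucleotides at a GC content of 66.7%, 67.0%, 69.7% and 67.7%, in this order. In the Kcnj2 window the letters CACGTG, an E-box core, start at position 167.

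The libraries differed in ways that touch all values below. The depth read from the lowest steps of the table came to about 13.8, 26.7 and 13.8 fragments for a 1 kb transcript at 1 FPKM in the E10.5, E13.5 and adult libraries. Spliced loci over 2 kb gave 14.8, 30.8 and 23.5, so the fragment numbers and the 95% intervals made from them are approximate, and they cover counting error only. The E13.5 library stood apart by transcript length. Over the 12569 mRNA loci at 1 FPKM or more in any library, the median difference of E13.5 from E10.5 on the log2(FPKM + 1) scale went from 0.59 for transcripts up to 1 kb to -0.48 for those over 8 kb. Between E10.5 and the adult it stayed between -0.31 and -0.45 in all 7 length classes. The deposited scale also left a shift over all lengths, with a median difference of 0.17 from E10.5 to E13.5, -0.50 from E13.5 to the adult and -0.40 from E10.5 to the adult. After median-of-ratios scaling these medians were 0.04, -0.03 and -0.06.

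**Figure D1:**
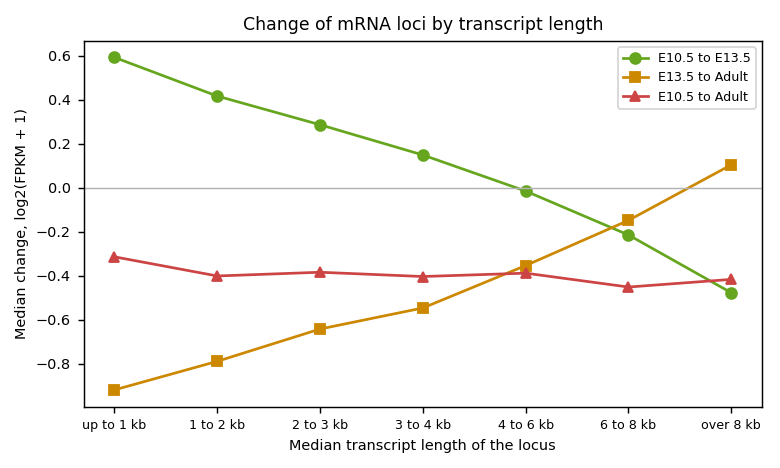
Median difference of log2(FPKM + 1) between stages (vertical axis) for mRNA loci in 7 classes of median transcript length (horizontal axis), with a line for each pair of libraries. Both comparisons with E13.5 slope with length, from 0.59 to -0.48 against E10.5, while the line from E10.5 to the adult stays between -0.31 and -0.45.

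The ventricle label was checked against marker genes. All 5 ventricular cardiomyocyte markers (Myl2, Myl3, Tnnt2, Actn2, Ryr2) were at 1 FPKM or more in each library, with sums of 9832, 16248 and 17665 FPKM in order of age. The 4 atrial markers (Myl7, Myl4, Sln, Nppa) summed to 6382, 6766 and 40.9 FPKM, and the 5 pacemaker markers (Hcn4, Shox2, Isl1, Tbx3, Cacna2d2) to 27.9, 17.1 and 2.76 FPKM. Most of the pacemaker sum at E10.5 was Cacna2d2, at 20.1, 5.90 and 0.0551 FPKM. Hcn4 and Tbx3 were also highest at E10.5, whereas Shox2 and Isl1 were highest at E13.5, with 2.69 and 3.76 FPKM. Of the 5, 3, 5 and 1 were at 1 FPKM or more in order of age. Several of these atrial genes are also active in the early embryonic ventricle. None of these lists serves as a correction below, and the part of cell makeup in any channel result was not tested.

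At each stage a similar number of channel loci was present, but not the same ones. In the E10.5, E13.5 and adult libraries 29, 29 and 28 of the 94 loci reached 1 FPKM, which is 30.9%, 30.9% and 29.8% against 56.2%, 57.7% and 55.5% of the 20117 mRNA loci. Only 18 loci did so in all 3 libraries. The adult library alone held 9 loci, among them Kcnd3, Kcnv2, Kcnn1, Kcne4, Kcna7, Kcnk13 and Kcna1. Both embryonic libraries but not the adult one held Kcnh7, Kcne1l, Kcnmb4, Kcne1, Kcnq5, Kcnmb1, Kcnk5 and Kcnn4, that is 8 loci. E13.5 alone held Kcne3, Kcnj4 and Kcnk1, E10.5 alone held Kcng1 and Kcnip3, and Kcnip2 was the single locus at 1 FPKM or more at E10.5 and in the adult but not at E13.5. The summed level of the 94 loci was 186, 176 and 293 FPKM, and 6, 7 and 11 loci reached 10 FPKM.

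The leading channel locus also differed by stage. Kcnj5, a subunit of the acetylcholine-gated inward rectifier, was the highest at E10.5 with 24.7 FPKM and at E13.5 with 15.3 FPKM. There it was followed by Kcnh2, Kcnh7, Kcnk3 and Kcne1l at E10.5, and by Kcne1l, Kcnmb4, Kcnh2 and Kcne1 at E13.5. In the adult library Kcnj2 led with 36.1 FPKM, before Kcnj3, Kcnk3, Kcnip2 and Kcnj5. The 5 highest loci held 47.6%, 39.6% and 48.4% of the summed channel FPKM, in order of age.

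**Figure D2:**
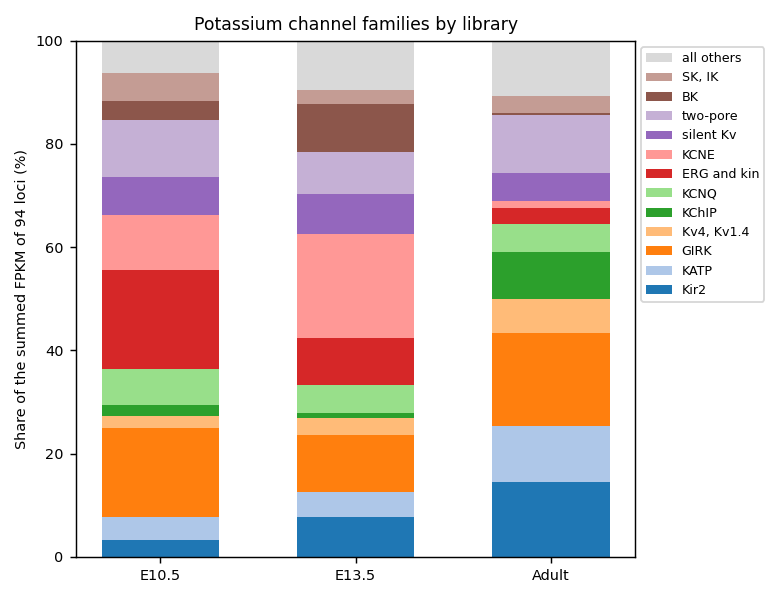
Share of the summed FPKM of the 94 channel loci (vertical axis, %) held by each channel family in the 3 libraries (horizontal axis). The ERG group holds 19.3% in the E10.5 bar and 3.01% in the adult bar, the KCNE group holds most at E13.5 with 20.1%, and the Kir2 group reaches 14.5% in the adult.

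Against E10.5, the adult library had 17 of the 41 loci higher by at least 1 on the log2(FPKM + 1) scale, which is 41.5% beside 14.8% of all mRNA loci counted the same way. It had 8 lower, which is 19.5% beside 27.3%, and 16 within 1. The median difference was 0.20 for the channel loci and -0.40 for all mRNA loci. A locus could enter the 41 through the very library in which it was high, so these shares describe the chosen loci only. Among those higher in the adult were Kcnj2, Kcnj12, Kcnj3, Kcnj8, Kcnj11, Kcnd2, Kcnd3, Kcnip2, Kcnq1, Kcne4, Kcna5, Kcna7, Kcnv2, Kcnk13, Kcnn1 and Kcnt2. Lower in the adult were Kcne1, Kcne1l, Kcnh2, Kcnh7, Kcnq5, Kcng1, Kcnk5 and Kcnmb4, the last through a listed 0. At 2 or more on the same scale, the adult had 5 loci higher than at E10.5 (Kcnj2, Kcnip2, Kcnj8 and Kcnd2 among them), beside 5.59% of mRNA loci, and 4 lower (Kcnh7, Kcne1l, Kcnmb4, Kcnq5), beside 8.10%. All 17 higher loci passed a size of 1 under each of the 3 scalings, whereas 5 of the 8 lower ones did, the exceptions being Kcnh2, Kcnk5 and Kcng1.

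**Figure D3:**
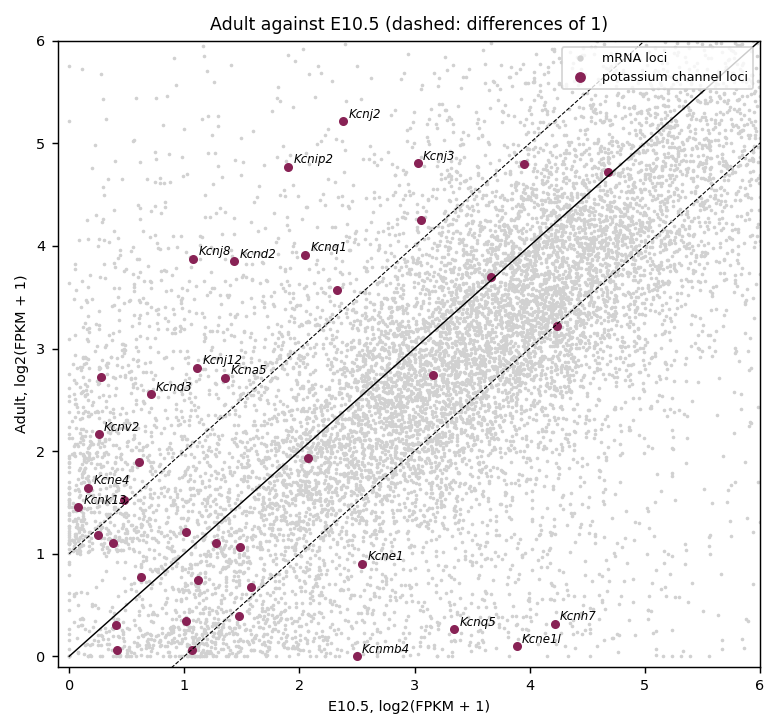
Levels in the adult library (vertical axis) against E10.5 (horizontal axis), both as log2(FPKM + 1) and shown up to 6, for mRNA loci (grey) and the 41 channel loci (purple), with dashed lines at a difference of 1. There are 17 channel loci above the upper dashed line, led by Kcnip2 and Kcnj2, and 8 below the lower one, among them Kcnh7 and Kcne1l.

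More loci differed between E13.5 and the adult than between the embryonic libraries. Against E13.5, 17 of 41 channel loci were higher in the adult, beside 13.0% of all mRNA loci, and 8 were lower, beside 32.1%. The median difference was 0.54 for the channel loci and -0.50 for all mRNA loci. From E10.5 to E13.5 only 5 loci were higher (Kcnj2, Kcna5, Kcne1, Kcne3 and Kcnmb4), beside 5.89% of mRNA loci, and 4 were lower (Kcnh7, Kcnip2, Kcnn2 and Kcng1), beside 4.85%. At 2 or more, 6 loci were higher in the adult than at E13.5 and 5 lower, beside 4.41% and 9.88%, and Kcne3 alone was higher and Kcnh7 alone lower at E13.5 than at E10.5, beside 0.851% and 0.247%. The 3 comparisons share libraries, so their counts are not separate evidence. With the length trend taken out, the 5 and 4 loci between the embryonic libraries and the 17 and 8 between E10.5 and the adult were the same loci. Under the other scalings 2 of the 5, Kcne3 and Kcnmb4, and 3 of the 4, Kcnh7, Kcnip2 and Kcnn2, passed each time.

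**Figure D4:**
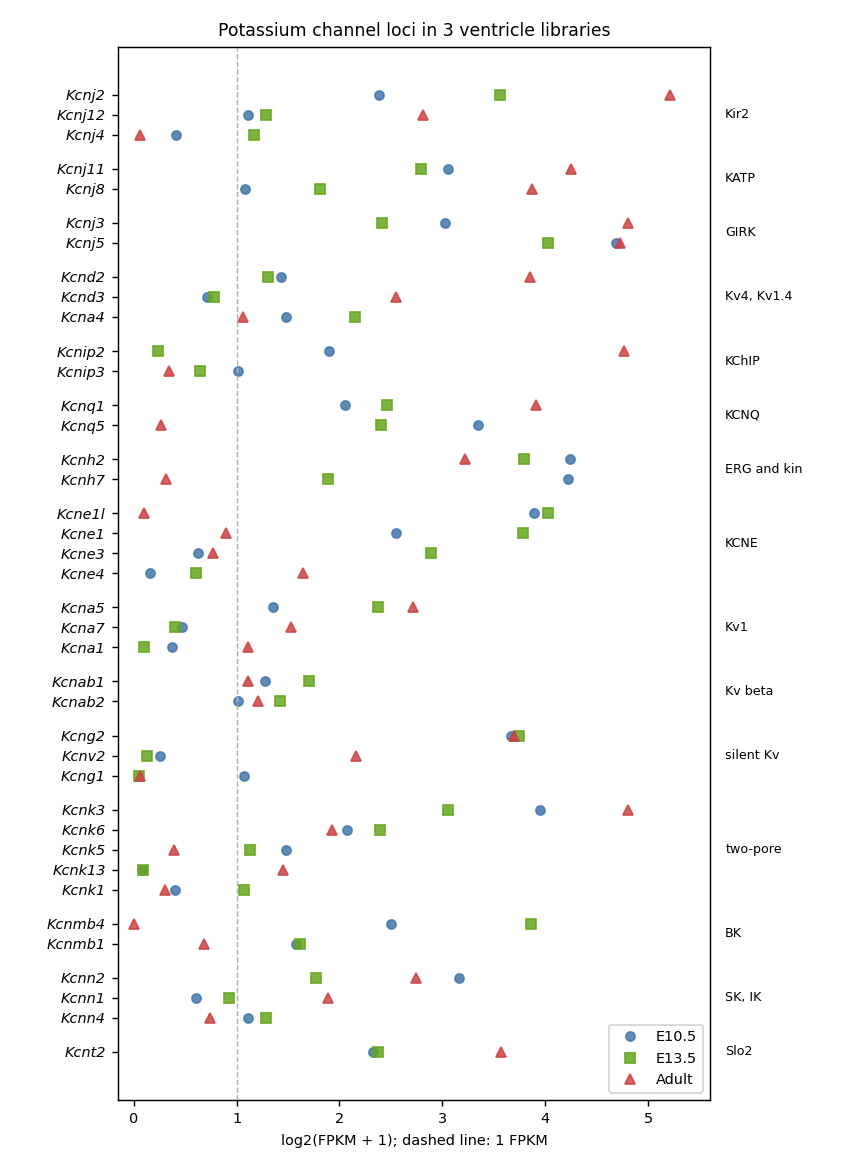
Level of channel loci at 1 FPKM or more in any library as log2(FPKM + 1) (horizontal axis) in the E10.5 (circles), E13.5 (squares) and adult (triangles) libraries, ordered by channel family, with a dashed line at 1 FPKM. The adult triangles lie far right for Kcnj2, Kcnip2, Kcnd2 and Kcnq1 and far left for Kcnh7, Kcne1l, Kcnq5 and Kcnmb4.

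Among the Kir2 inward rectifiers, which hold the resting potential of ventricular myocytes, Kcnj2 (chr11:111066164-111076825) was measured at 4.21, 10.8 and 36.1 FPKM, here and below in the order E10.5, E13.5, adult. The adult value was 8.56-fold the E10.5 value (approximate counting interval 7.62 to 9.65), and each library stood above the one before it. Kcnj12, the second cardiac Kir2 subunit, was at 1.16, 1.44 and 6.01 FPKM and was 5.17-fold higher in the adult than at E10.5 (3.84 to 7.07). Kcnj2 exceeded Kcnj12 in every library, by 3.62, 7.46 and 6.00 times. Kcnj4 had its highest value at E13.5, with 0.330, 1.26 and 0.0421 FPKM, the last of which rests on about 1 fragment. Kcnj14 stayed at or under 0.204 FPKM.

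The ATP-sensitive channel couples membrane potential to energy state, with Kcnj8 or Kcnj11 as its pore and Abcc8 or Abcc9 as its sulfonylurea receptor. Both pores were higher in the adult, Kcnj11 at 7.33, 5.93 and 18.0 FPKM and Kcnj8 at 1.11, 2.51 and 13.7 FPKM. The pair stood closer together with age, since the ratio of Kcnj8 to Kcnj11 within a library was 0.152 (0.104 to 0.215), 0.422 (0.350 to 0.507) and 0.758 (0.672 to 0.854) from the youngest to the oldest. These intervals do not overlap, and a ratio within a library does not depend on how the libraries are scaled. It can still carry the length trend of E13.5, because the loci fall in different length classes. The median difference of E13.5 from E10.5 was 0.29 for 2 to 3 kb (Kcnj8) and 0.15 for 3 to 4 kb (Kcnj11). Of the receptors, Abcc9 was at 51.4, 13.8 and 92.5 FPKM and Abcc8 at 1.43, 1.12 and 7.98 FPKM, so that Abcc9 exceeded Abcc8 by 36.0, 12.4 and 11.6 times. Kcnj8 is also a gene of pericytes, and the 4 pericyte markers (Rgs5, Pdgfrb, Cspg4, Notch3), all at 1 FPKM or more in each library, summed to 40.0, 68.1 and 268 FPKM. Most of that difference was Rgs5, at 9.81, 47.2 and 240 FPKM, whereas Cspg4 was at 17.4, 5.03 and 4.34 FPKM and the median of the 4 was 9.21, 8.79 and 11.8 FPKM. Their part in the Kcnj8 values was not tested.

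Kcnj3 and Kcnj5 form the acetylcholine-gated channel through which the vagus slows the heart, and both were above 1 FPKM in every library. Kcnj3 was measured at 7.15, 4.33 and 27.0 FPKM, 3.78-fold higher in the adult than at E10.5 (3.43 to 4.16). Kcnj5 was at 24.7, 15.3 and 25.4 FPKM, with an adult to E10.5 ratio of 1.03 (0.977 to 1.09). On the log2(FPKM + 1) scale that difference for Kcnj5 was 0.04, and 0.44 with median-of-ratios scaling. The partners therefore stood at unequal levels in the embryo and near equal ones in the adult, with Kcnj3 to Kcnj5 ratios of 0.290 (0.263 to 0.318), 0.283 (0.259 to 0.308) and 1.06 (1.00 to 1.12). This channel is best known from atrium and sinus node, whose marker sums were given above, and their part in the Kcnj3 and Kcnj5 values was not tested. The other subunits of the family, Kcnj6 and Kcnj9, stayed at or under 0.136 FPKM, and none of the 5 remaining inward rectifiers, Kcnj1, Kcnj10, Kcnj13, Kcnj15 and Kcnj16, reached 1 FPKM.

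Kcnd2 and Kcnd3, the Kv4 pores of the fast transient outward current, were at 1.70, 1.47 and 13.4 FPKM and at 0.634, 0.719 and 4.87 FPKM. They were 7.88-fold (6.44 to 9.73) and 7.68-fold (5.90 to 10.2) higher in the adult than in the E10.5 library. Their ratio to each other, 2.69, 2.05 and 2.76, had overlapping intervals in all 3 libraries. Kcna4, the pore of the slowly recovering transient outward current, went another way, at 1.79, 3.45 and 1.09 FPKM. The ratio of Kcnd2 to Kcna4 was thus 0.951 (0.733 to 1.23), 0.426 (0.358 to 0.506) and 12.3 (9.88 to 15.5).

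Kcnip2 (chr19:45792314-45816060) encodes the calcium-binding accessory subunit that brings Kv4 channels to the cell surface. It was measured at 2.74, 0.175 and 26.3 FPKM, the largest difference of any of the 41 loci between E13.5 and the adult, at 4.54 on the log2(FPKM + 1) scale. The adult value was 9.60-fold that of E10.5 (7.31 to 12.8) and 150-fold that of E13.5 (72.4 to 375), the E13.5 value resting on about 7 fragments. Its ratio to Kcnd2 was 1.61 (1.15 to 2.23), 0.119 (0.0472 to 0.251) and 1.96 (1.76 to 2.18). Its median transcript of 1545 bases falls in the class of 1 to 2 kb, whose median difference of E13.5 from E10.5 was 0.42 on the log2(FPKM + 1) scale. Of the other members of the family, Kcnip3 reached 1.02 FPKM at E10.5, and Kcnip1 and Kcnip4 stayed at or under 0.599 FPKM. Neither Dpp6 nor Dpp10, the other known Kv4 partners, reached 1 FPKM.

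The order of the delayed rectifier genes was not the same in the embryo and the adult. Kcnh2, the ERG channel of the rapid component, was at 17.8, 12.8 and 8.30 FPKM, and Kcnq1, the pore of the slow component, at 3.14, 4.52 and 14.1 FPKM. The ratio of Kcnq1 to Kcnh2 was 0.176 (0.144 to 0.213), 0.353 (0.312 to 0.398) and 1.70 (1.49 to 1.93), so that Kcnq1 exceeded Kcnh2 in the adult library alone. By itself Kcnh2 was 2.15-fold higher at E10.5 than in the adult (1.92 to 2.41), a difference of -1.02 on the log2(FPKM + 1) scale for the adult that became -0.64 with median-of-ratios scaling.

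A second ERG gene, Kcnh7, was an embryonic gene in these libraries. Its locus held assembled transcripts of 1887 to 7280 bases, some of which ran past the 3798-base RefSeq transcript at the 3′ end. The Kcnh7 values were those of this locus. At E10.5 it stood at 17.6 FPKM, level with Kcnh2 at a ratio of 0.987 (0.909 to 1.07). At E13.5 it was at 2.69 FPKM and in the adult at 0.246 FPKM, or 0.210 and 0.0296 times Kcnh2. Kcnh7 was thus 71.7-fold higher at E10.5 than in the adult (46.3 to 118). Kcnq5, a KCNQ channel known from brain and smooth muscle, followed the same order at 9.14, 4.31 and 0.201 FPKM, and was 45.4-fold higher at E10.5 than in the adult (28.2 to 78.4). Both genes are known from neurons. Of neuron and glia markers, Tubb3 was at 7.90, 9.49 and 1.72 FPKM, while S100b and Sox10 did not exceed 0.915 and 0.253 FPKM in any library. Their part in the Kcnh7 and Kcnq5 values was not tested. The 6 remaining genes of the EAG, ERG and ELK group stayed at or under 0.237 FPKM.

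The KCNE genes encode small single-pass subunits that retune KCNQ, ERG and other pores. Kcne1, which slows Kcnq1 into the slow delayed rectifier, was at 4.84, 12.8 and 0.868 FPKM while Kcnq1 was highest in the adult. The ratio of Kcne1 to Kcnq1 was therefore 1.54 (1.23 to 1.94), 2.83 (2.50 to 3.21) and 0.0617 (0.0430 to 0.0861). Kcne1l, an X-linked member of the family also called Kcne5, stood at 13.8 and 15.3 FPKM in the embryonic libraries and at 0.0706 FPKM, about 1 fragment, in the adult. The ratio of E10.5 to the adult was 195 with a counting interval of 34.8 to 7746.

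Other KCNE genes peaked elsewhere. Kcne3 was at 0.544, 6.42 and 0.708 FPKM and so 11.8-fold higher at E13.5 than at E10.5 (6.29 to 24.9), with the adult back near the E10.5 level. Kcne4 was at 0.119, 0.526 and 2.13 FPKM and highest in the adult. Kcne2, a partner of ERG channels, stayed at or under 0.509 FPKM. The summed share of the 5 KCNE genes in the channel FPKM was 10.7%, 20.1% and 1.37%.

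**Figure D5:**
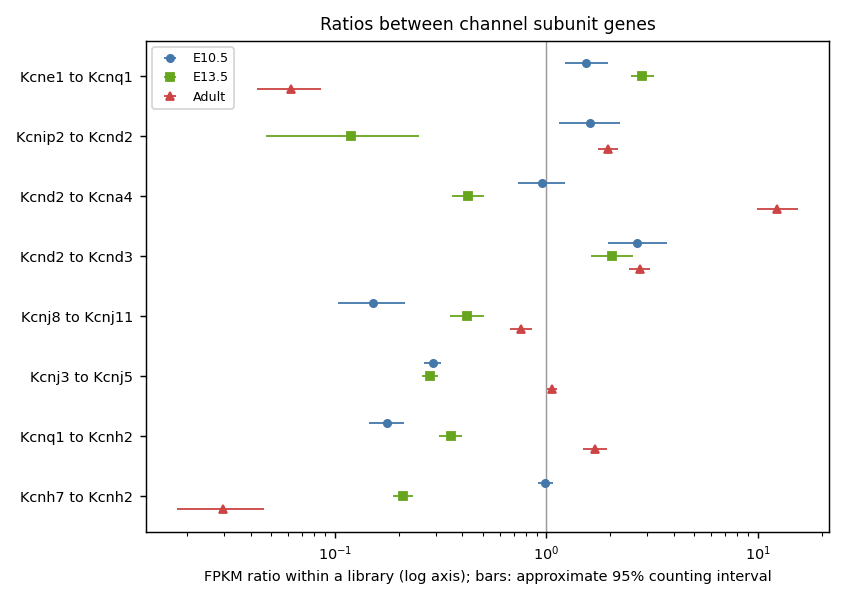
FPKM ratio of 2 channel subunit genes within a library (horizontal log axis) for 8 pairs (vertical axis), with points for the 3 libraries and bars for approximate 95% counting intervals. Kcne1 to Kcnq1 lies at 2.83 at E13.5 and at 0.0617 in the adult, while Kcnd2 to Kcna4 reaches 12.3 and Kcnj3 to Kcnj5 1.06 in the adult.

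Kcna5, a Kv1 pore of the sustained current of adult mouse ventricle, was at 1.56, 4.18 and 5.58 FPKM, and the adult value was 3.58-fold that of E10.5 (2.87 to 4.49). Kcnv2, a silent subunit that carries no current alone, was nearly absent from the embryonic libraries, at 0.195, 0.0911 and 3.48 FPKM. Amigo1, an adhesion protein that binds voltage-gated potassium channels, was at 1.44, 1.23 and 4.71 FPKM.

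Smaller Kv1 and silent subunit loci showed both courses. Kcna7 was at 0.388, 0.324 and 1.88 FPKM and Kcna1 at 0.298, 0.0700 and 1.16 FPKM, both highest in the adult. Kcng1, a silent subunit, was at 1.10, 0.0391 and 0.0412 FPKM, the last 2 values resting on about 3 and 2 fragments. Its relative Kcng2 was at 11.7, 12.4 and 11.9 FPKM. With the offset of its length class from all mRNA loci subtracted, its differences were 0.73 for E13.5 from E10.5 and -0.66 for the adult from E13.5 on the log2(FPKM + 1) scale. The assembled Kcng2 transcripts, however, were 19825 to 33873 bases long and ran past the 2815-base RefSeq transcript at the 3′ end, so this level is that of a much longer locus than the known mRNA. The beta subunits Kcnab1 and Kcnab2, which bind Kv1 pores in the cytoplasm, were at 1.42, 2.27 and 1.16 FPKM and at 1.02, 1.68 and 1.31 FPKM, with no difference of 1 between any libraries.

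K2P background channels were led by Kcnk3 (TASK-1), at 14.5, 7.32 and 26.9 FPKM. It was among the 5 highest channel loci of the youngest and the oldest library, and the adult value was 1.86-fold that of E10.5 (1.70 to 2.03) and 3.67-fold that of E13.5 (3.36 to 4.02). Kcnk6 was at 3.21, 4.25 and 2.82 FPKM. Kcnk5 was at 1.79, 1.19 and 0.309 FPKM and lowest in the adult. Kcnk13 was at 0.0559, 0.0671 and 1.74 FPKM, the first of which rests on about 2 fragments, giving an adult to E10.5 ratio of 31.1 with an interval of 8.30 to 261. Kcnk13 is a gene of microglia and macrophages too, and the 3 macrophage markers found (Csf1r, Cd68, Mrc1) summed to 2.93, 11.3 and 59.0 FPKM with 1, 3 and 3 of them at 1 FPKM or more. Their part in the Kcnk13 values was not tested. The other 9 K2P loci stayed under 1 FPKM.

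Calcium-activated channels were present mainly through accessory and small-conductance subunits. Kcnma1, the pore of the large-conductance BK channel, did not exceed 0.667 FPKM, whereas its brain-type beta subunit Kcnmb4 was at 4.64 and 13.6 FPKM in the embryonic libraries and listed at 0 in the adult. A listed 0 can be a failed estimate, so no fold is given for Kcnmb4. The smooth muscle beta subunit Kcnmb1 was at 1.99, 2.07 and 0.602 FPKM. The 4 smooth muscle markers summed to 1311, 1226 and 187 FPKM, with Acta2, Tagln and Cnn1 lower in the adult library and Myh11, the most specific of them, at 0.112, 0.893 and 18.1 FPKM. Their part in the Kcnmb1 values was not tested.

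Of the small-conductance channels, Kcnn2 was at 7.94, 2.41 and 5.69 FPKM and Kcnn1 at 0.524, 0.900 and 2.71 FPKM. Kcnn1 was 5.17-fold higher in the adult than at E10.5 (3.21 to 8.69). Kcnn4, the intermediate-conductance channel of blood cells and endothelium, was at 1.17, 1.43 and 0.676 FPKM. Of erythroid markers, the embryonic globin gene Hbb-y was at 4356, 15112 and 2.87 FPKM and Alas2 at 18.2, 34.1 and 19.6 FPKM, and their part in the Kcnn4 values was not tested. Kcnt2, a sodium-activated channel of the Slo2 family, was at 4.02, 4.20 and 10.9 FPKM and 2.71-fold higher in the adult than at E10.5 (2.31 to 3.18).

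Partner genes that do not carry the Kcn name were counted from a list of known channel partners. Of 13 such genes 8 reached 1 FPKM in any library, a share near that of all mRNA loci, 12569 of 20117. Between E10.5 and the adult, 4 of these 8 were higher by 1 or more and 0 lower. The shares of mRNA loci counted the same way were 14.8% and 27.3%. Of the 4, Lrrc52 was counted against a listed 0 at E10.5. Tmem38a, a potassium-permeable channel of the sarcoplasmic reticulum, was at 27.1, 24.2 and 144 FPKM, and its relative Tmem38b was at 9.85, 3.49 and 12.9 FPKM. Lrrc52, an accessory protein of Slo channels, had 1.38 FPKM in the adult and a listed 0 in each embryonic library. The scaffold genes Akap9 and Dlg1 were at 11.4, 8.19 and 13.6 FPKM and at 23.7, 17.7 and 24.5 FPKM.

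Several channel genes shared their start region with a transcript of the opposite strand. Such a start lay within 3000 bp for 13 of the 94 genes, and for 10 of them the opposite locus was no mRNA. The share of all mRNA loci with such a start was not counted, so these numbers do not set channel genes apart. A single-exon unnamed locus began 81 bp from the start of Kcnj11 and ran away from it, at 0.322, 0.210 and 3.71 FPKM beside 7.33, 5.93 and 18.0 for Kcnj11. The non-coding locus Gm9899 overlapped the start of Kcnk3, at 0.423, 0.278 and 2.18 FPKM. Both loci, like the genes beside them, were highest in the adult and lowest at E13.5. At the start of Kcnmb4 a 3-exon locus, Kcnmb4os2 in GENCODE, was at 0.281 and 1.20 FPKM in the embryonic libraries and, like Kcnmb4, listed at 0 in the adult. They are named here after their values were seen, and not all pairs moved together. Nphp4, an mRNA locus that started opposite Kcnab2, was at 1.19, 0.695 and 0.129 FPKM beside 1.02, 1.68 and 1.31 for Kcnab2.

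Of the 22 opposite-strand loci that bore a channel name, 17 reached 1 FPKM and 19 had a single exon. The same shares over the opposite-strand loci of other genes were not counted. Of the 22, 9 lay within a coding gene of their own strand, 3 in Gigyf2 across from Kcnj13 and 6 in 5730480H06Rik across from Kcnip4. Each of these 9 was lowest at E13.5, where they spanned 0.0825 to 0.899 FPKM, against 0.461 to 9.34 at E10.5 and 1.07 to 4.53 in the adult. The strongest of the 22 (chr16:94721672-94754652) was spliced, with up to 6 exons and the GENCODE name Gm41505. It overlapped Kcnj6 (chr16:94748683-94997696) only in part. It was at 14.9, 16.5 and 1.46 FPKM while Kcnj6 itself did not exceed 0.136 FPKM. Opposite Kcnd3, a locus was at 0.138, 0.561 and 1.79 FPKM, highest in the adult as was Kcnd3. The strand setting of the authors' assembly is not given in the sources used here, so single-exon loci on the strand opposite to a gene remain uncertain.

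RefSeq promoter windows were found for 69 of the 94 genes (94 windows). Of the 17 genes higher in the adult than at E10.5, 13 had a window, with a median of 11 CG dinucleotides and 60.0% GC, and of the 8 lower genes 6 had one, with a median of 20 and 67.7%. Over all 32851 promoters the medians were 7 and 52.7%. Windows of all channel genes at 1 FPKM or more had medians of 10 and 59.0%, and those of the channel genes below it 8 and 57.7%. The windows of both groups ranged widely, from 4 CG dinucleotides at Kcna7 to 26 at Kcnd2 among the higher genes, and from 3 at Kcnq5 to 48 at Kcnmb4 among the lower ones, and no test was made. Letters of 6 known motifs were searched on both strands. CACGTG lay in windows of Kcnj2 and Kcne4 among the higher genes and of Kcnk5 among the lower ones, and in 7.15% of all promoters. TNAAGTG, an NKX2 core, lay in windows of Kcnd3 and Kcnj8 and in 11.5% of all promoters. The GATA letters AGATAA are found in 11.2% of all promoters. The MEF2 motif is found in 3.69% of them, and the TATA box letters TATAAA in 13.6%. The estrogen-related receptor site TCAAGGTCA is found in 0.423% of them. None of these 4 motifs was in the windows of either group.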

How the data were processed

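Total RNA of C57BL/6 heart ventricle had been sequenced with paired ends after preparation with a stranded total RNA kit, 1 library for each of E10.5, E13.5 and the adult. The authors mapped reads to mm10 with TopHat2 and Bowtie and assembled them with Cufflinks, both with the UCSC annotation and without it. Exact versions and other options are not given in the sources used here. The deposited table holds FPKM per merged locus, and the deposited annotation holds exon coordinates of the merged transcripts. Read counts were not used here.

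Loci were taken by gene name, and those matching RefSeq coding transcripts of that name on the same strand were kept as gene loci. Differences were computed as log2(FPKM + 1), which understates changes of low loci, and counted from 1 upward for loci at 1 FPKM or more in any library. The 12569 mRNA loci above the same limit served as background. With a single library per stage no test was possible. Fragment numbers came from the lowest steps of FPKM times length, and ratios have exact 95% binomial (Clopper-Pearson) or Poisson counting intervals. Values in all 3 libraries are given for a list of cardiac channel genes and for any member at 5 FPKM or more or with a difference of 1 or more. Some genes are not reported here. Members and lists were chosen with earlier results of these data known. Promoters are RefSeq windows on GRCm38.p6, the assembly of mm10. Alternatives covered scaling, pseudocount, filter, size of change and transcript length. The scripts were tested on simulated data and used Python 3.11.15, numpy 2.4.6, pandas 2.3.3, scipy 1.17.1 and matplotlib 3.10.9.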

Additional observations from a re-analysis of the deposited data

How the results depend on the processing

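No paired analysis was possible because the 3 libraries carry no replicates to pair. Without replicates, differences between the animals of a stage cannot be separated from stage, and low values rest on few fragments. Of 82 recalculated counts, 72 stayed within 1.5 times the reported one. With 2 instead of 1 as the size of difference, 1 locus was higher at E13.5 than at E10.5 and 1 lower, the adult exceeded E13.5 at 6 loci and lay under it at 5, and the adult exceeded E10.5 at 5 loci and lay under it at 4. The 5 loci higher at E13.5 than at E10.5 became 2 when libraries were scaled to the same FPKM sum without globin and mitochondrial loci, and 10 with a pseudocount of 0.1. The 8 loci at which the adult lay under E10.5 became 5 with median-of-ratios scaling. With a limit of 2 FPKM, 17 loci were counted at E10.5 in place of 29. With the length trend taken out, an alternative chosen after seeing the data, the adult exceeded E13.5 at 18 loci and lay under it at 8. Kcna1 and Kcnj4 left, and Kcnn1, Kcnn2 and Kcnmb1 joined. Of 432 recalculated differences of single loci, 0 were counted as reversed and 59 as moved, all with a smaller pseudocount. Small differences could still change sign with scaling. For Kcng2, the adult differed from E13.5 by -0.055 on the log2(FPKM + 1) scale as deposited and by 0.472 with median-of-ratios scaling. Of the fragment numbers, 138 moved and 186 did not. The cause was not tested where the construction of an alternative does not give it.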
